A study of Homo sapiens with 6 samples.

Results

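The genes described here are 41 genes of the hypoxia response and of glycolysis, read in human neuroblastoma cells. They were chosen by name, as genes that hypoxia-inducible factor (HIF) is known to act on and as enzymes of glycolysis, and all 41 were found among the 25370 rows of a table of read counts per gene. The choice was made with earlier results of these data known. The 41 were read in 4 classes: 16 glycolytic enzymes, 7 switch kinases and transporters, 6 genes classed as HIF subunits and feedback genes, and 12 other HIF targets. The 6 are HIF1A, EPAS1, the prolyl hydroxylase genes EGLN1 and EGLN3, and the hypoxia-induced genes KDM3A and ANKRD37. Feedback of KDM3A and ANKRD37 on HIF is not shown here. The study sequenced 6 libraries: BE2C cells forced to express LMO1 (2 libraries), Kelly cells (1 library), parental BE2C cells (1 library) and BE2C cells carrying the vector control (2 libraries). The labels' protocols describe total RNA, though the Kelly and parental libraries differ from the others in RNA content, as given below. BE2C and Kelly are established neuroblastoma lines, both with an amplified MYCN gene, and LMO1 encodes a LIM-domain transcriptional cofactor. The LMO1 and vector libraries are both of engineered BE2C cells. The construct, its promoter, the oxygen and medium of the cultures, and whether replicate libraries came from separate cultures are not given in the sources used here, so the p-values cover only variation among these libraries, and that may be technical.

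Glycolysis splits glucose into pyruvate in the cytosol, and lactate dehydrogenase then turns pyruvate into lactate, which monocarboxylate transporters export. In well-oxygenated cells the prolyl hydroxylases of the EGLN family mark the HIF alpha subunits for destruction. When oxygen is low, HIF alpha protein is spared, pairs with ARNT and binds hypoxia response elements, whose core is ACGTG or GCGTG. Its targets include glucose transporters, glycolytic enzymes, kinases that switch off pyruvate dehydrogenase, and the hydroxylase genes themselves. Since HIF alpha is controlled mainly as protein, its messenger RNA level says little of its activity. In neuroblastoma, EPAS1 (HIF-2 alpha) is known from sympathetic precursor cells as well as from hypoxic tumour areas.

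The promoters of 6 members are shown, 3 enzymes, 2 other HIF targets and 1 feedback gene, because they span the range of matches to that core, running from no match in EGLN3 to 6 in BNIP3. RefSeq windows on GRCh38.p14 from 250 bases before to 50 bases after each gene start were found for 37 of the 41 members, all but NDRG1, VEGFA, BNIP3L and SLC2A3. Each line gives the 250 bases before the start, read 5′ to 3′ on the gene's own strand. Capitals mark ACGTG or GCGTG, or CACGT or CACGC, which are the same letters on the other strand. The PGK1 stretch is chrX:78103998-78104247 (plus strand), that of ALDOC is chr17:28576896-28577145 (minus), and that of LDHA is chr11:18394313-18394562 (plus). The BNIP3 stretch is chr10:131981924-131982173 (minus), that of CA9 is chr9:35673678-35673927 (plus), and that of EGLN3 is chr14:33951075-33951324 (minus).
PGK1: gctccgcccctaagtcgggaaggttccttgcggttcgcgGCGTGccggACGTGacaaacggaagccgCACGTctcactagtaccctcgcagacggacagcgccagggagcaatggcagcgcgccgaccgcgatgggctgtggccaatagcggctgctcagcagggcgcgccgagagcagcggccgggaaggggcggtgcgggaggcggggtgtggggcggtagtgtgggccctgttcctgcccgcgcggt
ALDOC: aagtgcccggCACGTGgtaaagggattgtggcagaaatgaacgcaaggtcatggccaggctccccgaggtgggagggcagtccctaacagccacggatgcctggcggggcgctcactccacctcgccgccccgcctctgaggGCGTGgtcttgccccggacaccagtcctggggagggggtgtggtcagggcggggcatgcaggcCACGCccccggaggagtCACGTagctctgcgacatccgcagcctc
LDHA: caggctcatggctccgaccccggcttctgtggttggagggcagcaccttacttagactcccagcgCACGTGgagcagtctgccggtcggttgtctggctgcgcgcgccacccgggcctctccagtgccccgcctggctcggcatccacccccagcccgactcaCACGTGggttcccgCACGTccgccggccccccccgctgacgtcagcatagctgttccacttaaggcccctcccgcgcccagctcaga
BNIP3: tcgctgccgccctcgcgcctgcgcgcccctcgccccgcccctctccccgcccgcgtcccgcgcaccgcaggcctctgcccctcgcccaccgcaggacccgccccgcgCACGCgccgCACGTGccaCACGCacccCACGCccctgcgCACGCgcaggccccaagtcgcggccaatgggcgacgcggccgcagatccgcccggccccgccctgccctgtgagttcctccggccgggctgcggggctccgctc
CA9: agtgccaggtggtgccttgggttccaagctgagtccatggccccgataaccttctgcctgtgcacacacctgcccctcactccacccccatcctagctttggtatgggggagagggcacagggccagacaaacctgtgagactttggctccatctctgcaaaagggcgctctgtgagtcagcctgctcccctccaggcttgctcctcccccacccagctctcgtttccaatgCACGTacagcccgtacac
EGLN3: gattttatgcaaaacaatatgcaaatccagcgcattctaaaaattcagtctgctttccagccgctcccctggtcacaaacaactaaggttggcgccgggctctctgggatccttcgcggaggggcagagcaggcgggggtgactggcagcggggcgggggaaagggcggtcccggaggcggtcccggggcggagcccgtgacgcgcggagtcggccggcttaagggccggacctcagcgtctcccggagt

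Matches were counted on both strands, and the palindrome CACGTG counts as 2 overlapping matches. The printed stretches held 3 matches for PGK1, 5 for ALDOC, 5 for LDHA, 6 for BNIP3, 1 for CA9 and 0 for EGLN3. The 37 members had 68 windows of 300 bases, since a gene can have several starts, and 48 of these (70.6%) held at least 1 match. The share was 61.1% of 36 enzyme windows and 81.2% of 32 windows of the other members. It was 59.6% over the windows of all genes tested with LMO1, 57.3% over those of the genes that rose with LMO1, and 48.4% over all 35116 windows of the table. At least 1 window held a match in 35 of the 37 members (94.6%), all but PGAM1 and EGLN3, and in 68.7% of the genes tested. This share per gene grows with the number of windows, and the 37 members had 68, against 16890 for 11652 genes tested. With ACGTG alone the share of windows was 44.1% for the members, 24.7% for the genes tested and 21.4% for all windows. A match to 5 letters is a description of the sequence and not a binding site.

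Total counts per library were 18737591 and 22426978 for LMO1, 59512958 for Kelly, 48663459 for parental BE2C and 21946052 and 25070942 for vector. The LMO1 gene checked the labels, at 6.20 ± 0.489 CPM in LMO1 cells and 0.990 ± 0.0907 CPM in vector cells (CPM, read counts relative to library size after scaling by the trimmed mean of M values; SD, n = 2 each), with 94.1 CPM in Kelly, against 1.93 CPM in parental BE2C. MYCN had 1597 ± 55.0 CPM with LMO1 and 1658 ± 10.4 CPM with vector, 2066 CPM in Kelly, against 1612 CPM in parental BE2C. All 14 sympathoadrenal markers (among them HAND2, DBH and CHGA) had counts in every library and summed to between 6437 and 8033 CPM. Fibroblast and endothelial markers summed to 320 and 324 CPM with LMO1, 202 in Kelly, 444 in parental and 379 and 383 with vector. In each library 1 to 3 of the 14 were at 0. The highest of them in every BE2C library was THY1, at 177 and 184 CPM with LMO1, 168 in parental and 159 and 160 with vector. In Kelly it was PDGFRB, at 98.8 CPM. The sum thus rests largely on 1 gene in the BE2C libraries. Schwann and melanocytic markers summed to 16.0 to 35.1 CPM, and haematopoietic markers to 7.54 to 9.82 CPM, most of it CD68. The Kelly and parental libraries stood apart from the 4 libraries of engineered cells in the RNA they hold. Histone genes, whose messages mostly lack a poly(A) tail, took 1.23% and 1.23% of counts with LMO1, 0.0138% in Kelly, 0.0423% in parental and 1.01% and 1.02% with vector. Small noncoding RNA genes took 3.53% and 3.91%, 0.0696%, 0.0892%, and 3.81% and 3.77% in the same libraries. Any difference between the parental and the vector libraries therefore cannot be told apart from a difference in how the libraries were made. The LMO1 and vector libraries were close to each other in both, with a slightly higher histone share with LMO1.

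With LMO1, glycolytic enzymes and other HIF targets both rose, and none of the 41 was called lower. In the edgeR quasi-likelihood test with Benjamini-Hochberg adjustment over the 15480 genes tested, 36 of the 41 members rose and 0 were called lower at an adjusted p below 0.05, where 31.0% of all genes tested were called, 15.9% higher and 15.1% lower. The number of members called lower was also 0 at an unadjusted p below 0.05, with DESeq2's Wald test and with limma-voom. The median log2 fold change of LMO1 over vector was 0.47 for the members, against 0.00083 for all genes tested. Among the enzymes 14 of 16 rose, with a median log2 fold change of 0.28. Among the other members 22 of 25 rose, with a median of 0.63. The 5 members not called were the enzymes HK1 and LDHA, the kinase gene PDK3, the HIF subunit gene HIF1A and the hypoxia-induced gene ANKRD37. In 40 of the 41 members both LMO1 libraries lay above both vector libraries, which was so for 31.3% of all genes tested, and the exception was HIF1A, whose groups overlapped. Without LMO1 replicate 1, HIF1A was the 1 member called lower. All 41 passed the filter on low counts. Among the 10 fibroblast and endothelial markers tested, 4 rose and 4 fell in the same comparison. ACTA2, smooth muscle actin, had 26.5 and 25.8 CPM with LMO1, against 101 and 94.1 CPM with vector (log2 fold change -1.89), and TAGLN and COL3A1 fell by 1.76 and 1.80 on the log2 scale. DCN and LUM, both matrix proteoglycan genes, rose by 0.84 and 1.06, while the endothelial marker PECAM1 had 0 or 1 read in each library. Their part in the change of the 41 was not tested. In such bulk samples, fewer cells of a type and less RNA per cell cannot be told apart.

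**Figure D1:**
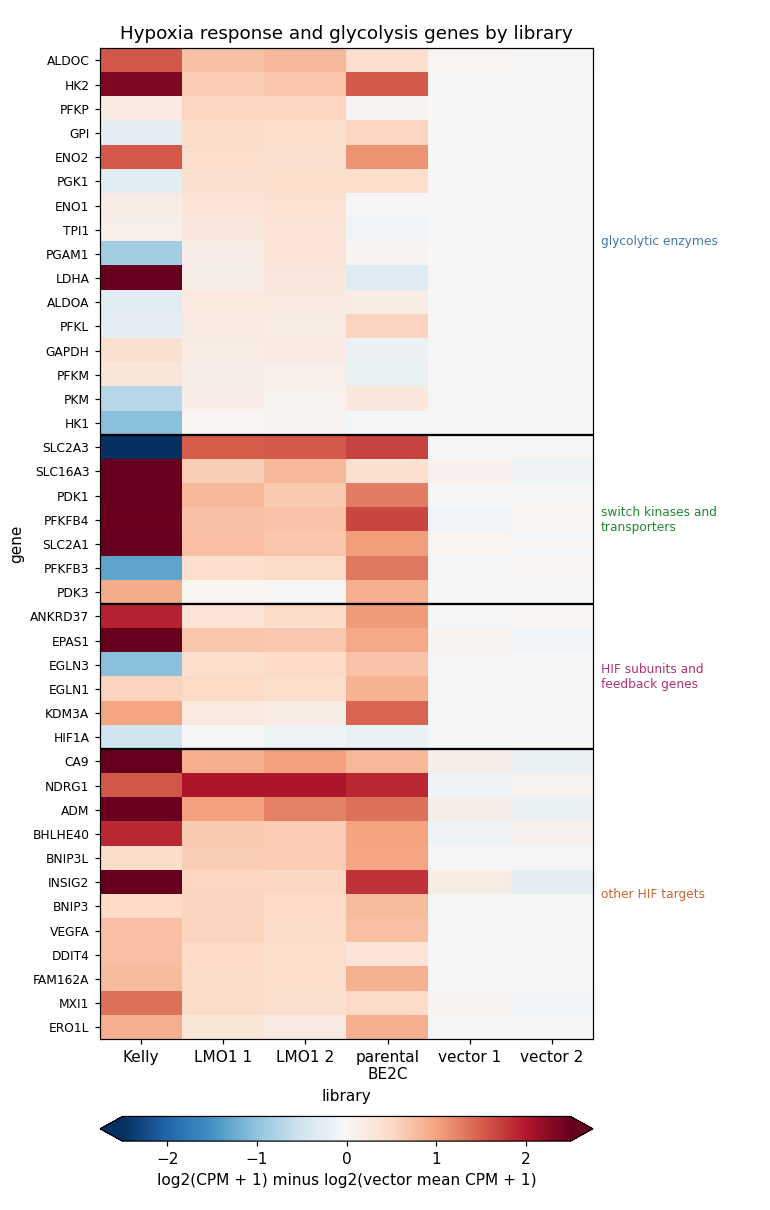
Each row is 1 of the 41 genes and each column 1 of the 6 libraries; colour gives log2(CPM + 1) minus log2 of the vector mean CPM + 1, red above and blue below the vector mean, and the black lines part the 4 classes. The LMO1 columns are red in nearly every row, and the parental column is red mostly below the enzymes. The colour scale is capped at both ends. The Kelly column holds both the darkest red (LDHA, SLC16A3, EPAS1, PDK1, SLC2A1, CA9 and INSIG2) and the darkest blue (SLC2A3).

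The enzymes rose by small and closely measured steps. Summed over the 16, they took 13153 and 13305 CPM in LMO1 libraries, against 11115 and 11013 CPM in vector libraries, with 12851 CPM in Kelly, against 11805 CPM in parental BE2C. GAPDH alone made up 39.6% of that sum in LMO1 replicate 1. Several of these genes, GAPDH, ENO1, PGK1, LDHA, TPI1, PGAM1, ALDOA and PKM among them, have processed pseudogenes in the human genome, and how the counting treated reads that fit both is not given in the sources used here.

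At the entry of the pathway, HK2, the inducible hexokinase that traps glucose as glucose 6-phosphate, had 123 and 129 CPM with LMO1, against 79.6 and 78.9 CPM with vector. The log2 fold change came to 0.68 (SE 0.0481, edgeR adjusted p = 4.28e-16), and the groups were far apart relative to the spread within each. HK1, the constitutive hexokinase, had 274 and 279 CPM with LMO1 and 265 and 264 CPM with vector (log2 fold change 0.07, SE 0.0330, edgeR adjusted p = 0.101). So the hexokinase that rose was the one at the lower level per length, as the shares given further on show. GPI, which converts glucose 6-phosphate to fructose 6-phosphate, had 709 and 700.1 CPM with LMO1, against 518 and 515 CPM with vector (log2 fold change 0.46).

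The phosphofructokinases catalyse the committed step. PFKP, the platelet-type enzyme, had 266 CPM in both LMO1 libraries, against 181 and 184 CPM in vector libraries (log2 fold change 0.55, SE 0.0351). PFKM, the muscle-type enzyme, had 201 and 198 CPM with LMO1 and 179 and 182 CPM with vector, a log2 fold change of 0.15. PFKL, the liver-type enzyme, had 72.3 and 70.3 CPM with LMO1 and 63.0 and 60.7 CPM with vector, a log2 fold change of 0.21. All 3 rose, but the call for PFKL was lost without LMO1 replicate 1 (edgeR adjusted p = 0.0682) and without vector replicate 2 (0.0737).

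Of the aldolases, which split the 6-carbon sugar, ALDOC had the largest change of any enzyme. ALDOC, the brain-type aldolase, had 57.4 and 60.4 CPM with LMO1, against 35.4 and 32.8 CPM with vector (log2 fold change 0.80, SE 0.0707, edgeR adjusted p = 5.42e-13). Its promoter, printed above, holds 5 matches. ALDOA, the widely expressed aldolase, had 937 and 920.5 CPM with LMO1 and 784 and 799 CPM with vector, a log2 fold change of 0.24.

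The later steps of the pathway rose too, PKM least among those called. TPI1, which interconverts the triose phosphates, had 773 and 819 CPM with LMO1 and 637 and 654 CPM with vector (log2 fold change 0.31). GAPDH, which oxidises glyceraldehyde 3-phosphate, had 5205 and 5254 CPM with LMO1 and 4583 and 4552 CPM with vector (log2 fold change 0.20). GAPDH is often used as a constant reference gene, and here both LMO1 values lay above both vector values. PGK1, the first step of the pathway that yields ATP, had 951 and 988 CPM with LMO1 and 723 and 724 CPM with vector (log2 fold change 0.43). PGAM1, the phosphoglycerate mutase, had 408 and 456 CPM with LMO1 and 366 and 361 CPM with vector (log2 fold change 0.26), and its RefSeq window holds no match to either core. ENO1, the ubiquitous enolase, had 1472 and 1541 CPM with LMO1 and 1197 and 1155 CPM with vector (log2 fold change 0.36). ENO2, the neuronal enolase and a serum marker of neuroblastoma, had 232 and 225 CPM with LMO1 and 172 and 168 CPM with vector (log2 fold change 0.44). PKM, pyruvate kinase, had 1449 and 1375 CPM with LMO1 and 1311 and 1263 CPM with vector (log2 fold change 0.14, SE 0.0250). LDHA, the lactate dehydrogenase subunit that HIF is known to induce, stood at 22.3 and 24.6 CPM with LMO1 and 20.3 and 19.5 CPM with vector. The log2 fold change of 0.24 (SE 0.0988) was not called (edgeR adjusted p = 0.0552). It passed the threshold under 4 of 12 alternatives, leaving out LMO1 replicate 1 among them (edgeR adjusted p = 0.0372), with adjusted p between 0.00795 and 0.304 over all 12.

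**Figure D2:**
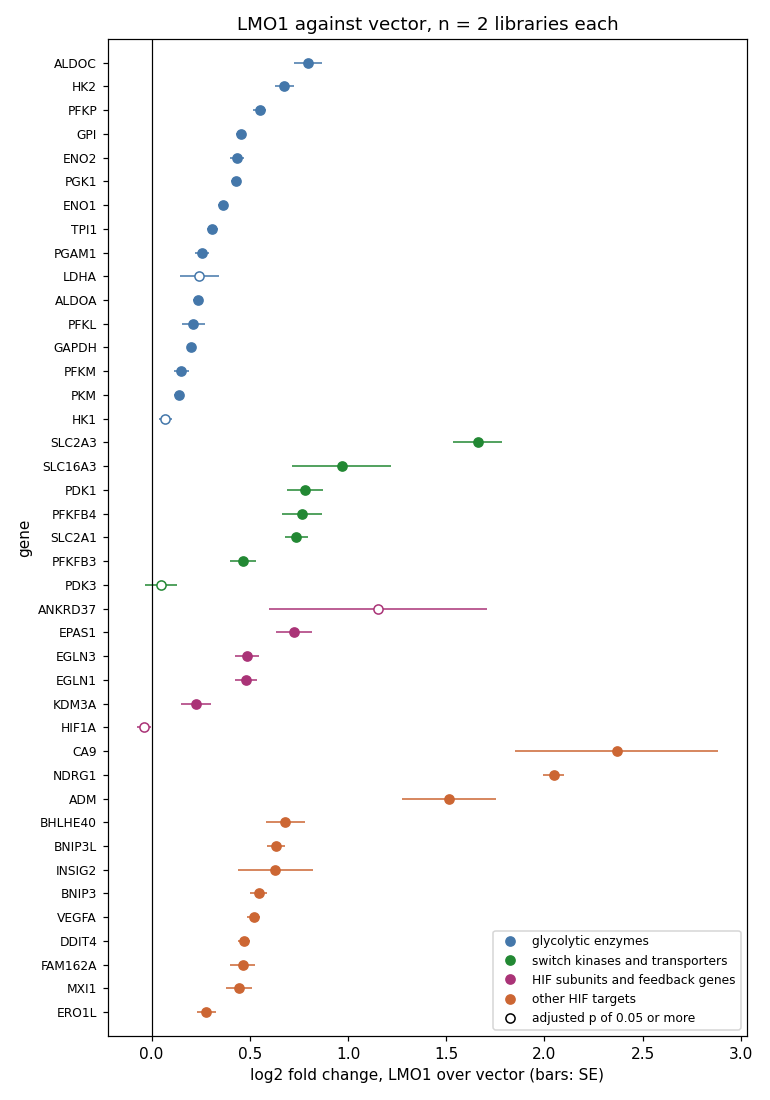
Points are log2 fold changes of LMO1 over vector (n = 2 libraries each) from the edgeR fit, bars are 1 SE, colours mark the 4 classes and open points have an adjusted p of 0.05 or more. The 16 enzymes lie between 0.07 and 0.80, and the 4 genes past 1 that were called (CA9, NDRG1, SLC2A3 and ADM) are all outside the enzymes.

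Among the switch kinases and transporters, 6 of 7 rose, with a median log2 fold change of 0.77. SLC2A3, the high-affinity glucose transporter GLUT3, had 22.3 and 22.7 CPM with LMO1, against 7.01 and 7.24 CPM with vector. The log2 fold change came to 1.66 (SE 0.125, edgeR adjusted p = 2.64e-15), a 3.16-fold rise. Its near-identical neighbour SLC2A14 had 0 to 2 reads in each library. SLC2A1, the basal glucose transporter GLUT1, had 87.9 and 83.8 CPM with LMO1 and 53.2 and 50.2 CPM with vector (log2 fold change 0.74). PDK1, a kinase that switches off pyruvate dehydrogenase, had 36.9 and 32.7 CPM with LMO1 and 20.3 CPM in both vector libraries (log2 fold change 0.78). PDK3, a kinase of the same family, differed little, with 33.4 and 33.1 CPM with LMO1 and 31.9 and 32.6 CPM with vector (log2 fold change 0.05, 95% interval -0.11 to 0.21). PFKFB4 and PFKFB3 make and break fructose 2,6-bisphosphate, the activator of phosphofructokinase. PFKFB4 had 25.8 and 25.4 CPM with LMO1 and 14.4 and 15.7 CPM with vector (log2 fold change 0.77). PFKFB3 had 61.1 and 62.9 CPM with LMO1 and 43.7 and 46.5 CPM with vector (log2 fold change 0.46). SLC16A3, the lactate exporter MCT4, was scarce, at 3.98 and 4.71 CPM with LMO1 and 2.52 and 1.97 CPM with vector (log2 fold change 0.97, SE 0.252). It had 76 and 107 reads with LMO1 and 55 and 49 with vector, and the call was lost without LMO1 replicate 2 (edgeR adjusted p = 0.0809).

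Of the 6 genes classed as HIF subunits and feedback genes, 4 rose, with a median log2 fold change of 0.48. HIF1A, the widely expressed HIF alpha subunit, had 294 and 269 CPM with LMO1 and 286 and 294 CPM with vector. The log2 fold change came to -0.04 (SE 0.0352, edgeR adjusted p = 0.429). EPAS1, the HIF-2 alpha subunit, had 31.8 and 31.3 CPM with LMO1, against 20.1 and 18.3 CPM with vector (log2 fold change 0.73, SE 0.0920, edgeR adjusted p = 1.17e-08). The prolyl hydroxylase genes EGLN1 and EGLN3, whose enzymes mark HIF alpha for destruction and which are themselves HIF targets, rose nearly alike. EGLN1 had 85.6 and 82.6 CPM with LMO1 and 60.6 and 60.4 CPM with vector (log2 fold change 0.48). EGLN3 had 68.3 and 70.9 CPM with LMO1 and 50.7 and 49.3 CPM with vector (log2 fold change 0.49), and its window printed above has no match. KDM3A, a histone demethylase induced by hypoxia, had 40.5 and 39.3 CPM with LMO1 and 34.4 and 34.0 CPM with vector (log2 fold change 0.23, edgeR adjusted p = 0.0186), a call lost with DESeq2 and when LMO1 replicate 1 or either vector library was left out. ANKRD37 had 14 and 20 reads with LMO1 and 7 and 10 with vector, and its log2 fold change of 1.15 (SE 0.554, edgeR adjusted p = 0.113) was not called.

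All 12 other HIF targets rose, with a median log2 fold change of 0.59. NDRG1, a differentiation and stress gene with strong induction by hypoxia, had 149.8 and 150.01 CPM with LMO1, against 34.3 and 38.4 CPM with vector. This was a 4.13-fold rise (log2 fold change 2.05, SE 0.0551, edgeR adjusted p = 3.04e-32), with the smallest SE of the 4 changes past 2-fold. CA9, a carbonic anhydrase at the cell surface that handles acid, had 1.47 and 1.67 CPM with LMO1 and 0.458 and 0.161 CPM with vector. The log2 fold change of 2.37 (SE 0.515, edgeR adjusted p = 0.000292) rests on 28 and 38 reads with LMO1 and 10 and 4 with vector, and ran from 1.77 without vector replicate 2 to 3.25 without vector replicate 1. ADM, which encodes the vasodilator peptide adrenomedullin, had 5.18 and 6.29 CPM with LMO1 and 2.38 and 1.69 CPM with vector (log2 fold change 1.51, SE 0.241).

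The remaining 9 rose by less than 2-fold each. The mitophagy receptor genes BNIP3 and BNIP3L rose by similar steps: BNIP3 had 158 and 152 CPM with LMO1 and 106 and 107 CPM with vector (log2 fold change 0.55). BNIP3L had 124 and 126 CPM with LMO1 and 82.4 and 80.0 CPM with vector (log2 fold change 0.63). VEGFA, the angiogenic growth factor, had 419 and 397 CPM with LMO1 and 289 and 283 CPM with vector (log2 fold change 0.52). DDIT4, an inhibitor of mTORC1 signalling, had 472 and 455 CPM with LMO1 and 338 and 334 CPM with vector (log2 fold change 0.47). MXI1, a MAX partner that opposes MYC proteins, had 63.5 and 61.0 CPM with LMO1 and 48.3 and 43.6 CPM with vector (log2 fold change 0.45). BHLHE40, a transcriptional repressor, had 27.4 and 27.2 CPM with LMO1 and 15.8 and 18.4 CPM with vector (log2 fold change 0.68). FAM162A, a mitochondrial protein gene, had 64.6 and 63.9 CPM with LMO1 and 46.6 and 47.0 CPM with vector (log2 fold change 0.46). ERO1L (now ERO1A), the oxidase that forms disulphide bonds in the endoplasmic reticulum, had 115 and 109 CPM with LMO1 and 91.5 and 94.1 CPM with vector (log2 fold change 0.28). INSIG2, which restrains sterol synthesis, had 7.33 and 7.22 CPM with LMO1 and 5.54 and 3.94 CPM with vector (log2 fold change 0.63, edgeR adjusted p = 0.00809). The vector libraries differed more from each other in INSIG2 than in most members, and the log2 fold change was 0.39 without vector replicate 2 (edgeR adjusted p = 0.211). The INSIG2 call was also lost with DESeq2 and without either LMO1 library.

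The parental library shows how the vector control compares with unmodified cells, though its library differs in histone and small RNA content as given above. Log2 ratios of CPM + 1 were taken where either side reached 5 CPM, with no test since parental BE2C is 1 library. Of 38 members used, 11 were at least 2-fold higher in parental than in the vector mean and 0 were 2-fold lower, against 8.79% and 2.58% of all genes used. The median log2 ratio was 0.13 for the enzymes and 0.98 for the other members, against 0.05 for all genes. The parental value was above the vector mean in 10 of 16 enzymes and 21 of 22 other members, against 54.7% of all genes. HK2 and ENO2 were the 2 enzymes past 2-fold: HK2 had 230.5 CPM in parental and 79.3 CPM on average in vector cells, and ENO2 had 371 CPM in parental and 169.97 CPM in vector cells. NDRG1 had 137 CPM in parental cells and 36.4 CPM in vector cells, and SLC2A3 had 25.1 CPM and 7.13 CPM in the same order. GAPDH went the other way, with 4135 CPM in parental and 4568 CPM in vector cells.

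Set against parental instead of vector, the LMO1 libraries did not lie above in most members. Of the 36 members that rose against vector, the parental value was above the LMO1 mean in 24, against 37.7% of all genes that rose. This split by class: 6 of 14 enzymes and 18 of 22 other members. Both LMO1 libraries lay above the vector and the parental libraries in 14 members, 10 of them enzymes, against 16.8% of all genes tested. The 4 that were not enzymes were NDRG1, CA9, SLC16A3 and DDIT4. PFKP was 1 of these 10 enzymes, with 266 CPM in both LMO1 libraries, 191 CPM in parental and 181 and 184 CPM in vector libraries. The enzymes had no single pattern, and HK2 was 1 of the 6 with parental above LMO1, at 230 CPM against a mean of 126 CPM. PFKFB3 was 1 of the 18 other members with parental above LMO1. It had 61.1 and 62.9 CPM in LMO1 libraries, 115 CPM in parental and 43.7 and 46.5 CPM in vector libraries. The LMO1 and the parental comparisons share the 2 vector libraries, so a low or high vector value enters both. The LMO1 libraries also differ from the parental library in the histone and small RNA content given above. In the counts that use the parental library, a difference between cells and one between libraries cannot be told apart.

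In Kelly cells single members stood far from parental BE2C in both directions, while the medians against that library lay near 0. Of 40 members that reached 5 CPM on either side, 8 were at least 2-fold higher in Kelly than in parental BE2C and 3 at least 2-fold lower, against 15.3% and 13.4% of all genes used. This comparison shares the parental library with the one before. The median log2 ratio was 0.17 for the enzymes, 0.01 for the other members and -0.03 for all genes. Against the mean of all 5 BE2C libraries, 14 members were at least 2-fold higher. The share of all genes past 2-fold against that mean is not given here, so this count has no background beside it. The median against that mean was 0.35 for all members, -0.0222 for the enzymes, 0.53 for the other members and 0.07 for all genes. That mean includes the engineered cells, whose libraries differ from Kelly in histone and small RNA content as given above. The intervals below are exact 95% intervals of the ratio of CPM and cover counting error only, since each line is 1 library. Kelly was above all 5 BE2C libraries in 20 members, below all 5 in 11 and within their range in 10, against 35.7% above and 38.6% below over the genes tested.

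LDHA differed most among the enzymes. It had 514 CPM in Kelly, against 15.7 CPM in parental BE2C, a ratio of 32.8 (30.5 to 35.3), and all 5 BE2C libraries lay between 15.7 and 24.6 CPM. The lactate exporter SLC16A3 had 123 CPM in Kelly, against 3.31 CPM in parental BE2C, a ratio of 37.1 (31.7 to 43.7). EPAS1 had 477 CPM in Kelly, against 38.6 CPM in parental BE2C, a ratio of 12.4 (11.8 to 12.97), while HIF1A had 205 CPM in Kelly, against 257 CPM in parental BE2C. CA9 had 10.5 CPM in Kelly, against 1.32 CPM in parental BE2C, a ratio of 7.95 (6.13 to 10.5). SLC2A1 had 477 CPM in Kelly, against 108 CPM in parental BE2C, and PDK1 had 197 and 50.7 CPM in the same order. ALDOC, at 102 CPM in Kelly, against 45.9 CPM in parental BE2C, and ADM, at 15.8 and 6.87 CPM, were the other two past 2-fold.

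The 3 lower in Kelly were SLC2A3, PFKFB3 and EGLN3. SLC2A3 had 4 reads in Kelly (0.0671 CPM) and 1199 in parental cells (25.1 CPM), a ratio of 0.00267 (0.000728 to 0.00687). PFKFB3 had 17.4 CPM in Kelly, against 115 CPM in parental BE2C, and EGLN3 had 23.6 CPM in Kelly, against 82.8 CPM in parental BE2C. Each of the 3 lay below all 5 BE2C libraries. HK1 at 128 CPM in Kelly, against 255 CPM in parental BE2C, PKM at 785 and 1542 CPM, and PGAM1 at 197 and 381 CPM lay just inside the 2-fold line. VEGFA, with 479 CPM in Kelly, against 485 CPM in parental BE2C, and ERO1L, with 175 and 174 CPM, were nearly equal.

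**Figure D3:**
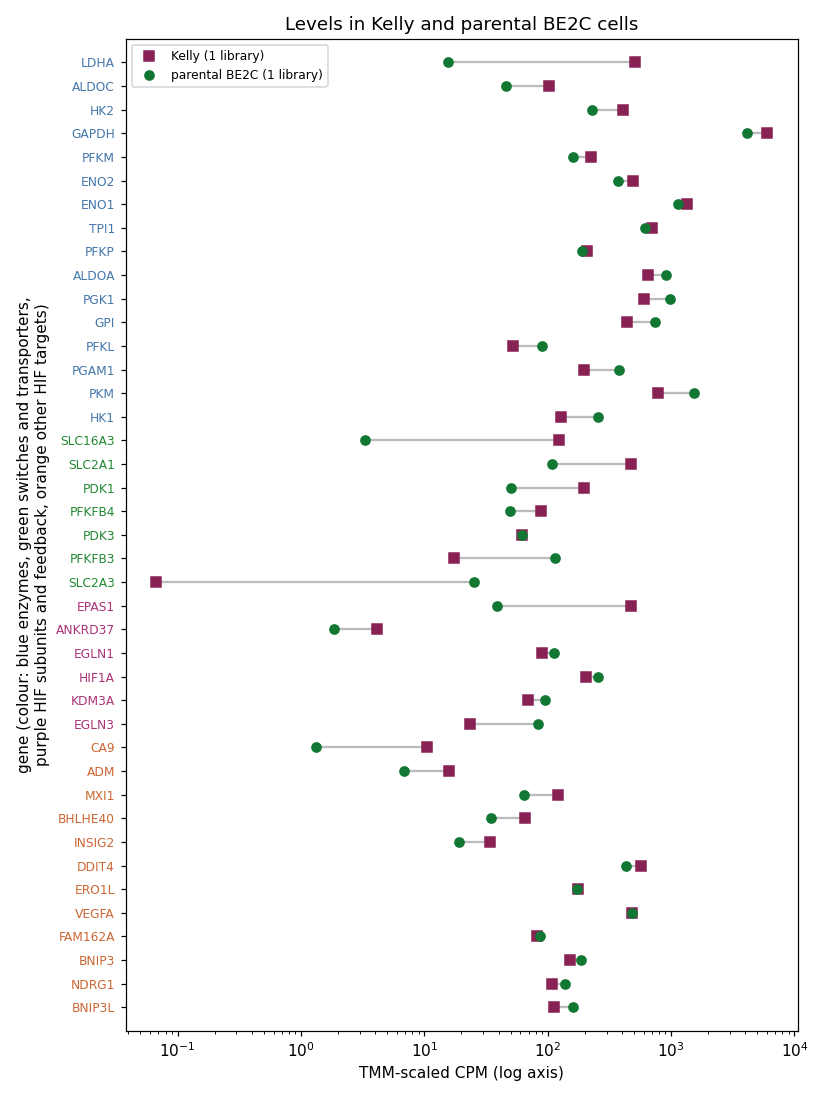
Each row is 1 gene, with its CPM in Kelly (squares) and parental BE2C cells (circles), 1 library each, on a log axis; label colours mark the 4 classes. LDHA, SLC16A3 and EPAS1 lie far to the right in Kelly, SLC2A3, PFKFB3 and EGLN3 to the left, and most enzymes lie close together.

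Levels per length rank the paralogues of a step within a library. CPM was divided by the length of the longest protein-coding transcript in GENCODE and given as a share of the summed level of the pair or trio. HK2 made up 68.8% of the hexokinase pair in Kelly, 23.7% and 24.3% with LMO1, 38.5% in parental and 17.2% in both vector libraries. EPAS1 made up 64.0% of the HIF alpha pair in Kelly, 7.66% and 8.18% with LMO1, 10.3% in parental and 5.10% and 4.54% with vector. HIF1A was thus the more abundant alpha subunit message per length in every BE2C library, and EPAS1 in Kelly.

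Among the glucose transporters SLC2A3 took 0.0132% of the pair in Kelly, 19.2% and 20.2% with LMO1, 17.9% in parental and 10.99% and 11.9% with vector. PFKFB4 took 86.5% of its pair in Kelly, 34.7% and 33.7% with LMO1, 35.5% in parental and 29.4% and 29.9% with vector. EGLN1 took 60.4% of the EGLN1 and EGLN3 pair in Kelly, 33.5% and 31.9% with LMO1, 35.1% in parental and 32.4% and 33.0% with vector, so its share was nearly equal with LMO1 and with vector while both genes rose. LDHA took 17.0% of the lactate dehydrogenase pair in Kelly, 1.28% and 1.40% with LMO1, 1.10% in parental and 1.08% and 1.02% with vector. LDHB, the heart-type subunit, was thus the main lactate dehydrogenase message in all 6 libraries. SLC16A3 took 27.6% of its pair with SLC16A1 in Kelly, 1.35% and 1.70% with LMO1, 1.17% in parental and 0.844% and 0.643% with vector.

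ENO2 took 23.4% of the enolase pair in Kelly, 11.6% and 10.8% with LMO1, 21.4% in parental and 10.6% and 10.8% with vector. The enolases thus rose with LMO1 in step. The share of ENO2 in parental cells was closer to Kelly than to the engineered BE2C cells. The parental and Kelly libraries also share the low histone and small RNA content given above, so cells and libraries cannot be told apart. ALDOC took 11.7% of the aldolase pair in Kelly, 4.92% and 5.24% with LMO1, 4.10% in parental and 3.67% and 3.35% with vector. PFKP took 46.4% of the phosphofructokinase trio in Kelly, 52.5% and 52.9% with LMO1, 45.8% in parental and 45.9% and 46.2% with vector. PDK1 took 30.0% of its pair with PDK3 in Kelly, 13.03% and 11.8% with LMO1, 10.03% in parental and 7.92% and 7.76% with vector. These PDK1 shares depend strongly on the length used. Its longest transcript has 14193 bases, against 1921 for PDK3, while the coding lengths are 1368 and 1245. The coding length gives PDK1 a far larger share in every library. With the coding length in place of transcript length, the leading paralogue was the same in all 6 libraries in 10 of the 11 families, the exception being PDK1 and PDK3. The lactate dehydrogenase, monocarboxylate transporter and PFKFB families were added after their values were seen.

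**Figure D4:**
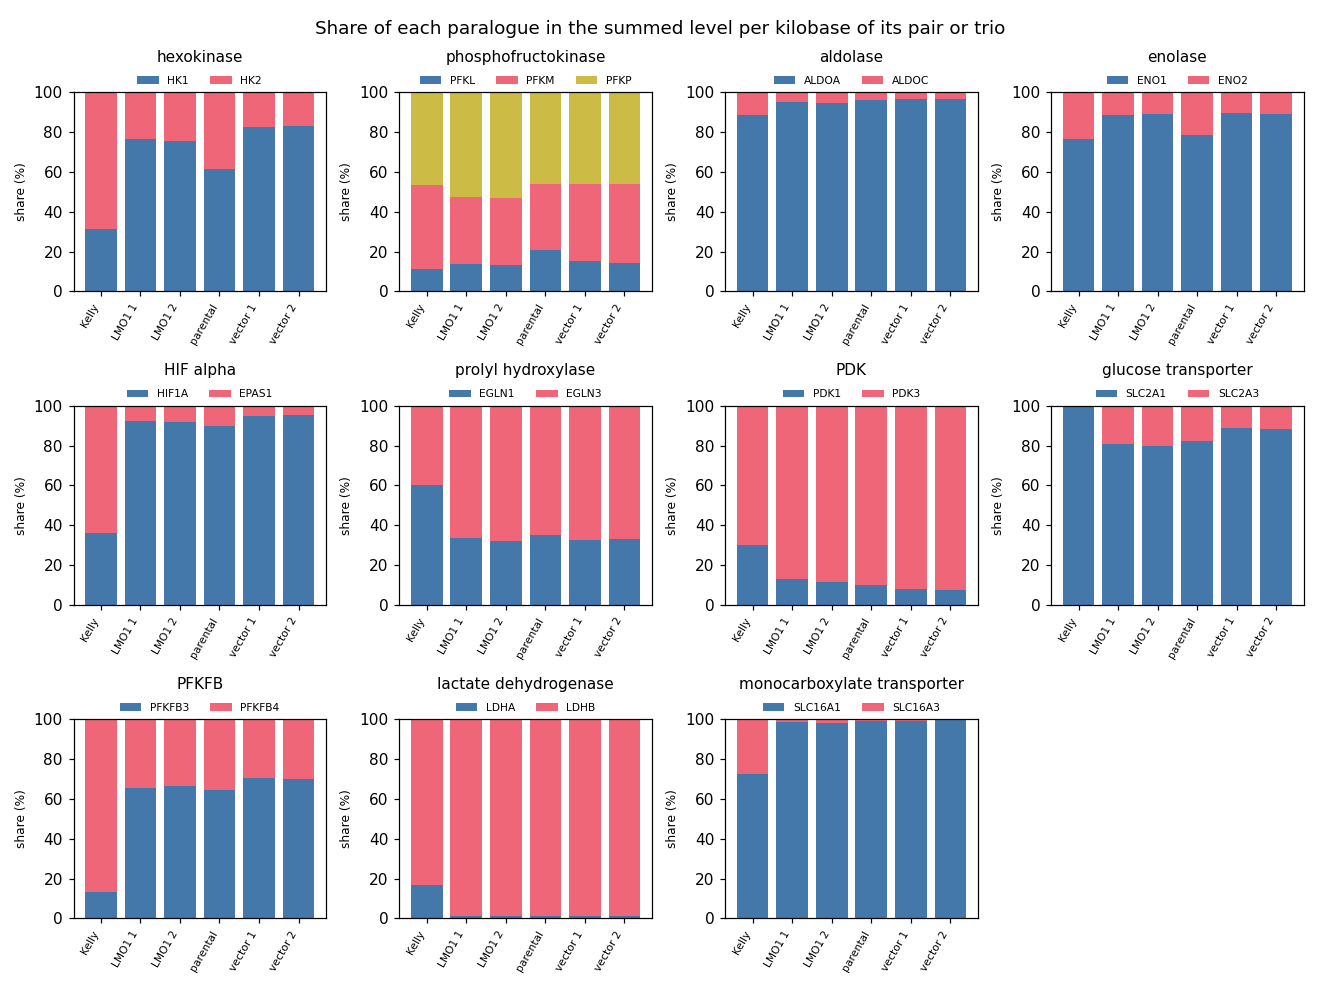
Stacked bars give each paralogue's share of the summed CPM per kilobase of its family in each of the 6 libraries. In Kelly the HK2, EPAS1, EGLN1 and PFKFB4 bars fill over 60% of their pairs, against under 40% in each BE2C library.

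Among the genes around the 41, a list of further HIF targets was mostly higher with LMO1, and 5 lists of neighbouring pathways had medians near 0. These lists were also chosen with earlier results of these data known, so they are no independent check on the 41. Of 37 tested genes on the list of HIF targets, 21 rose and 3 fell with LMO1, against 15.9% and 15.1% of all genes tested. Their median log2 fold change was 0.58. STC1, which encodes the hormone stanniocalcin, had 124 and 116 CPM with LMO1 and 49.6 and 45.2 CPM with vector (log2 fold change 1.35). P4HA1, a collagen prolyl hydroxylase, had 112 and 113 CPM with LMO1 and 50.6 and 53.0 CPM with vector (log2 fold change 1.13). IGFBP3, an insulin-like growth factor binding protein, fell to 19.8 and 22.6 CPM with LMO1, against 67.96 and 64.9 CPM with vector (log2 fold change -1.63), and had 4.16 CPM in Kelly, against 124 CPM in parental BE2C. TFRC, the transferrin receptor, fell to 306 and 312 CPM with LMO1, against 428 and 439 CPM with vector (log2 fold change -0.48). So the list's direction was not shared by all of its genes. EPO, which encodes erythropoietin, had 11.4 CPM in Kelly, against 0.272 CPM in parental BE2C, and with LMO1 its 0.628 and 0.704 CPM against 0.458 and 0.121 CPM with vector were not called (edgeR adjusted p = 0.134).

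Of 22 tested genes of glycolysis and glycogen handling outside the 16 enzymes, 3 rose and 3 fell, with a median log2 fold change of 0.07. The shares over all genes tested were 15.9% and 15.1%. PGAM2, the muscle phosphoglycerate mutase, had 97.1 and 89.6 CPM with LMO1 and 72.2 and 74.2 CPM with vector (log2 fold change 0.36). The number that rose was 1 without LMO1 replicate 2. GBE1, the glycogen branching enzyme, rose by 0.18 on the log2 scale, a call lost when either second replicate was left out. LDHB fell to 1091 and 1098 CPM with LMO1, against 1186 and 1199 CPM with vector (log2 fold change -0.12, SE 0.0237), and PGM2, a phosphopentomutase, fell by 0.45. In Kelly LDHB had 1599 CPM, against 899 CPM in parental cells. PFKFB2 had 19.4 CPM in Kelly, against 3.81 CPM in parental BE2C.

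Among 18 tested regulators of HIF, 1 rose and 4 fell (2 without vector replicate 2), with a median log2 fold change of 0.01. The coactivator genes EP300 and CREBBP fell by 0.31 and 0.34 on the log2 scale. The chaperone gene HSP90AA1, at 772 and 735 CPM with LMO1 and 799 and 817 CPM with vector, fell by 0.09. Its call was lost under total count scaling and without vector replicate 2. SIAH1, a ubiquitin ligase that acts on prolyl hydroxylases, rose by 0.48. Over all genes tested, 15.9% rose and 15.1% fell. HSP90AA1 had 401 CPM in Kelly, against 1574 CPM in parental BE2C.

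Of 17 tested genes of pyruvate entry and mitochondrial adaptation, 3 rose and 3 fell, against 15.9% and 15.1% of all genes tested. Their median log2 fold change was 0.02. COX4I2, a cytochrome oxidase subunit gene induced by hypoxia, had 1.78 and 1.85 CPM with LMO1 and 0.916 and 0.362 CPM with vector (log2 fold change 1.53, SE 0.440), and HIGD1A rose by 0.18. Leaving out vector replicate 2 gave 0.99 for COX4I2, and leaving out vector replicate 1 gave 2.31. CS, citrate synthase, fell by 0.18, and PDHB, a subunit of pyruvate dehydrogenase, fell by 0.25. With DESeq2 the calls for COX4I2, HIGD1A and PDHB were lost (DESeq2 adjusted p = 0.0512, 0.0513 and 0.0561), and that for CS was kept. The COX4I2 call was also lost without either LMO1 library or vector replicate 2, and the HIGD1A and PDHB calls without LMO1 replicate 1 or vector replicate 1. MPC1, a subunit of the mitochondrial pyruvate carrier, had 8.73 CPM in Kelly, against 42.4 CPM in parental BE2C, and DLD, the dehydrogenase subunit shared by several complexes, had 64.3 and 228 CPM in the same order.

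Against 15.9% and 15.1% of all genes tested, 1 of 10 tested pentose phosphate genes rose (PRPS2, 0.46) and 2 fell (TALDO1, -0.16, and PGLS, -0.28). Their median was 0.02. Leaving out LMO1 replicate 2 left 0 that fell, and leaving out any other library left 1. With DESeq2 neither TALDO1 nor PGLS was called (DESeq2 adjusted p = 0.0808 and 0.108), and TALDO1 was not called under total count scaling. TKTL1, a transketolase relative, had 142 CPM in Kelly, against 0.126 CPM in parental BE2C, and TKT had 326 and 159 CPM. Of 13 tested transporter genes, BSG rose by 0.29, at 924 and 934 CPM with LMO1 and 750.2 and 772 CPM with vector; BSG is the chaperone that carries MCT proteins to the membrane. SLC2A6, SLC2A8 and SLC16A1 fell by 0.49, 0.34 and 0.09, so 1 rose and 3 fell, against the same shares of all genes tested. The median of the 13 was -0.04. Without vector replicate 2, 1 of these fell. The SLC16A1 call was lost under 6 of 12 alternatives, DESeq2 and total count scaling among them. In Kelly BSG had 230.3 CPM, against 837 CPM in parental cells, while SLC2A13, a myo-inositol transporter gene, had 28.1 CPM in Kelly, against 5.71 CPM in parental BE2C.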

How the data were processed

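RNA was sequenced from 6 libraries. Per the submitters' processing notes, reads were handled with TopHat2 2.0.6 and HTSeq on hg19, and per the labels' protocols the libraries were stranded, paired-end, total RNA preparations. The authors deposited 1 table of raw read counts per gene symbol. The annotation and the strand setting of the counting are not given in the sources used here. The 41 members and all gene lists were chosen with earlier results of these data known.

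LMO1 and vector libraries (2 each) were compared with the edgeR 4.0.16 quasi-likelihood F test, fitted on the whole table (R 4.3.3, TMM scaling, low-count filter). Benjamini-Hochberg adjustment ran over 15480 genes, and genes were called at an adjusted p below 0.05. The fit was also run on simulated counts. These assumed independent replicates and a spread close to that estimated here, so the run cannot show how the test does with technical replicates. The filter removed 9890 of 25370 rows. Of the 25370, 3827 were at 0 in all libraries, and 28 symbols had become dates in the deposited table. Levels are CPM, counts relative to library size scaled by TMM over all 6 libraries. Parental and Kelly are 1 library each, so ratios of CPM + 1 were taken where either side reached 5 CPM, with no test. Transcript lengths came from GENCODE, promoter windows from RefSeq. Named genes were all members and, of each list, up to 4 called with the lowest adjusted p and up to 2 with the largest 2-fold ratio in Kelly. A gene that this rule names is not reported here. Counting intervals are exact and cover counting error only. Total counts ran between 18737591 and 59512958 per library. Alternatives were DESeq2 1.42.0, limma 3.58.1 (voom), other scalings and filters, all 6 libraries in the fit, a replicate block, and leaving out each library.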

Additional observations from a re-analysis of the deposited data

How the results depend on the processing

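Over 12 alternatives the number of members that rose with LMO1 was 33 to 38, against 36, and 32 of those 36 were past the threshold under every alternative in which they were tested; CA9 and SLC16A3 were not tested with at least 5 CPM in 2 libraries. The number of members called lower was 0, or 1 when a library was left out, both over all members and outside the enzymes (leave-one-out range 0 to 1). That 1 was HIF1A without LMO1 replicate 1 (log2 fold change -0.11, adjusted p = 0.0257), and its value was 0.0232 without LMO1 replicate 2 (adjusted p = 0.669). Leaving out 1 library gave an enzyme median of 0.26 to 0.34 and a median of the other members of 0.55 to 0.62, which was 0.55 with at least 5 CPM in 2 libraries, where fewer genes are tested. A lone library is then assumed to vary like the other group. With DESeq2's Wald test 1539 genes rose and 1431 fell, against 2463 and 2334, and on the pyruvate and mitochondrial list 0 rose and 1 fell, against 3 and 3, and 5 rose with all 6 libraries in the fit. Total count scaling left 2 HIF regulators and 1 pentose phosphate gene that fell, against 4 and 2, and DESeq2 left 0 of the pentose phosphate genes. Against the mean of all 5 BE2C libraries, 14 members (4 enzymes and 10 others) were at least 2-fold higher in Kelly and 1 enzyme 2-fold lower. The shares of all genes against that mean are not given here. The median was -0.0222 for the enzymes, 0.53 for the other members and 0.35 for all members. Scaling without histone and small RNA genes, chosen after seeing the data, gave 1 enzyme 2-fold lower in Kelly and a median of the other members of -0.0085. The cause of these shifts was not tested. With the replicate number as a block, 36 members rose and 0 were called lower, with medians of 0.47 for all, 0.28 for the enzymes and 0.63 for the others. The labels do not say that a number pairs libraries, and the differences between replicates correlated at -0.02 across genes between the groups. Depth limits ANKRD37, CA9 and SLC16A3, and the single parental and Kelly libraries give no spread.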
